A study of Mus musculus with 16 samples.

Results

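The host-poor tumor arrays were 3 of the 9 tumor arrays in a series of 16 Illumina bead arrays of total RNA from C57BL/6 mice aged 8 weeks. They were chosen by measured values, namely signals near background for Krt14, Acta1, Col1a1, Adipoq and Csf1r, which mark epidermis, skeletal muscle, fibroblasts, fat cells and macrophages. By their labels the host-poor arrays were array 4 of the tumor microenvironment taken at day 4 after tumor inoculation and arrays 2 and 5 of that taken at day 14. The other 6 tumor arrays, called host-rich here, were arrays 1, 2 and 3 of day 4 and arrays 1, 3 and 4 of day 14. The remaining 7 arrays were of control tissue, whose organ or site the labels do not name. All groups shared strain and age, and inoculation was the only treatment named. The labels do not say how many cells were inoculated, where, how the tissue was cut, or whether the arrays came from separate mice, so the spread between arrays may be technical in part.

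B16 cells are a transplantable mouse melanoma that arose in C57BL/6 and makes pigment. Tissue cut from a graft site can hold the melanoma cells, the host skin, muscle and fat beside them, and the vessels, fibroblasts and leukocytes that grow or move into a tumor. Pigment cells build melanin in melanosomes, with enzymes and structural proteins that few other cells make, so these transcripts follow the graft and also the melanocytes of normal hair follicles. Because the array classes were made from the signals themselves, each difference between them below is a description, with no test, for the 5 marker genes and for all other genes. In total tissue RNA, fewer cells of a type and less RNA per cell cannot be told apart.

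Fewer transcripts were detected on the host-poor arrays. Between 15555 and 16663 probes had a detection p under 0.05 on a host-poor array, against 18468 to 21669 on a host-rich array and 19466 to 21100 on a control array. The median raw signal overlapped, at 105 to 140 on host-poor, 127 to 141 on host-rich and 116 to 155 on control arrays. The host-poor arrays were alike over all genes, with Pearson correlations of 0.964 to 0.979 among them, although they came from both days. They correlated at 0.530 to 0.789 with host-rich arrays and at 0.513 to 0.739 with control arrays. Host-rich arrays correlated at 0.7983 to 0.9846 among themselves and at 0.7615 to 0.9843 with control arrays. Some of those pairs were therefore at least as alike as the host-poor ones. These correlations run across 9453 genes, which are not independent.

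The marker signals that defined the classes lay far apart. On the host-poor arrays, taken in the order day 4 array 4, day 14 array 2 and day 14 array 5, Krt14, the basal keratin of epidermis, had normalized log2 signals of 4.47, 6.40 and 4.64, against 13.77 to 14.62 (median 14.36) on the host-rich arrays. Acta1, the actin of skeletal muscle, had 4.55, 4.45 and 5.45 on host-poor arrays and 12.23 to 14.18 (median 13.79) on host-rich arrays. Col1a1, a chain of type I collagen, had 4.43, 4.75 and 4.60 on host-poor arrays and 11.20 to 13.85 (median 13.42) on host-rich arrays. On no array did a host-poor value of these 3 genes come within 5 log2 units of a host-rich value. Adipoq, the fat cell hormone adiponectin, had 4.73, 4.98 and 4.99 on host-poor arrays and 9.001 to 12.45 (median 11.17) on host-rich arrays. Csf1r, the receptor through which macrophages are maintained, had 4.401, 4.62 and 4.35 on host-poor arrays and 8.54 to 9.91 (median 9.28) on host-rich arrays. The classes came nearest for Csf1r, between day 14 array 2 and day 4 array 1, and then for Adipoq. Krt14 on day 14 array 2 was the one marker value detected on a host-poor array. Before normalization, the Krt14 probe had raw signals of 129, 121 and 128 on the host-poor arrays and 12741 to 27820 on the host-rich arrays.

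**Figure D1:**
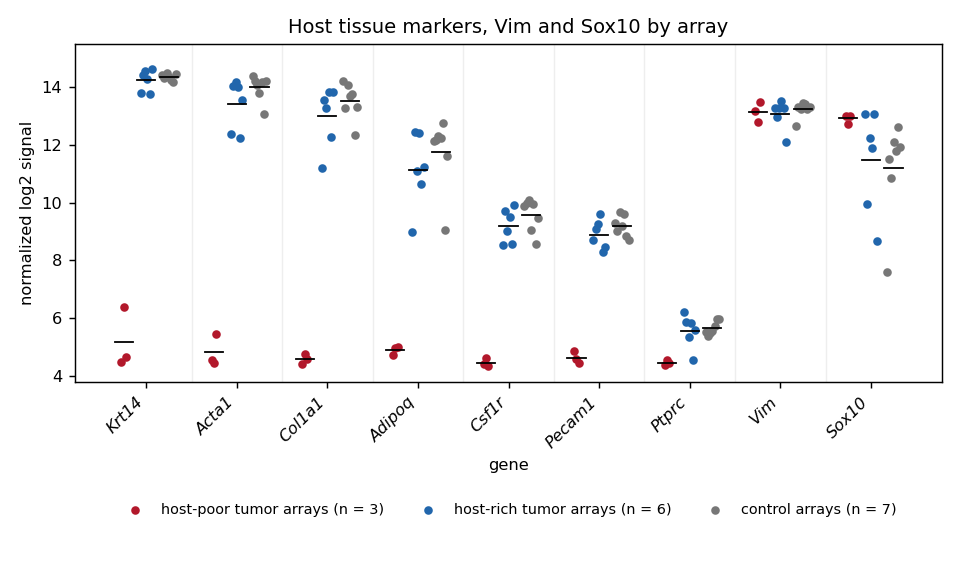
Normalized log2 signal (y axis) of 7 host tissue genes and of Vim and Sox10 (x axis) on each array, with red points for the 3 host-poor, blue for the 6 host-rich and gray for the 7 control arrays and black bars for the means. Host tissue genes lie near the array floor on host-poor arrays, Krt14 on day 14 array 2 being the highest of them there, whereas Vim and Sox10 keep high signals on all of them.

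Genes were then divided by detection and by size over the 9453 genes with a symbol that were detected on at least 3 of the 16 arrays. A total of 1785 genes (18.9%) were lower on the host-poor arrays, meaning that their mean was at least 2-fold lower and that every host-poor array lay below every host-rich array. By the same rule upward 1265 genes (13.4%) were higher. A set of 1087 genes (11.5%) was lost, that is, detected on all 6 host-rich arrays and on none of the 3 host-poor arrays. On all 3 host-poor arrays 7142 of the 9453 genes were detected, and on all 9 tumor arrays 6774 (71.7%). Since the arrays were divided by host transcripts, these shares are the background of every count below, nothing is read from them, and none of them is a test. Lost is used here of a comparison between arrays, not of a change over time, and it goes by the brightest probe of a gene. Of all genes called, 41.5% were higher. This split was 64.8% when arrays were scaled to their 75th percentile, 31.4% in the deposited value table and 32.3% without background correction. The median log2 difference over all genes was 0.15, and 0.54 under the 75th percentile scaling. Differences of low signals were smaller in the deposited value table and without background correction, where the epidermis median given below was -5.06 and -5.03.

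The genes lower on host-poor arrays were mostly undetected there. Of the 1785, 1174 were detected on no host-poor array, 231 on 1 or 2 of them and 380 on all 3. The 1265 higher genes were not private to the host-poor arrays, since 1070 of them were detected on all 6 host-rich arrays and 1092 on all 7 control arrays. Control arrays lay with the host-rich ones: 1708 of the lower genes were below every control array as well, and 1217 of the higher genes were above every control array. No gene with a symbol was detected on all 3 host-poor arrays and on no host-rich array. Symbols were at hand only for probes of the deposited value table, and all 14124 of these with a signal passed the detection filter, so a gene found on few arrays could have no symbol here. Among 9431 detected probes without a symbol, 51 were detected on all 3 host-poor arrays and on no host-rich array.

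**Figure D2:**
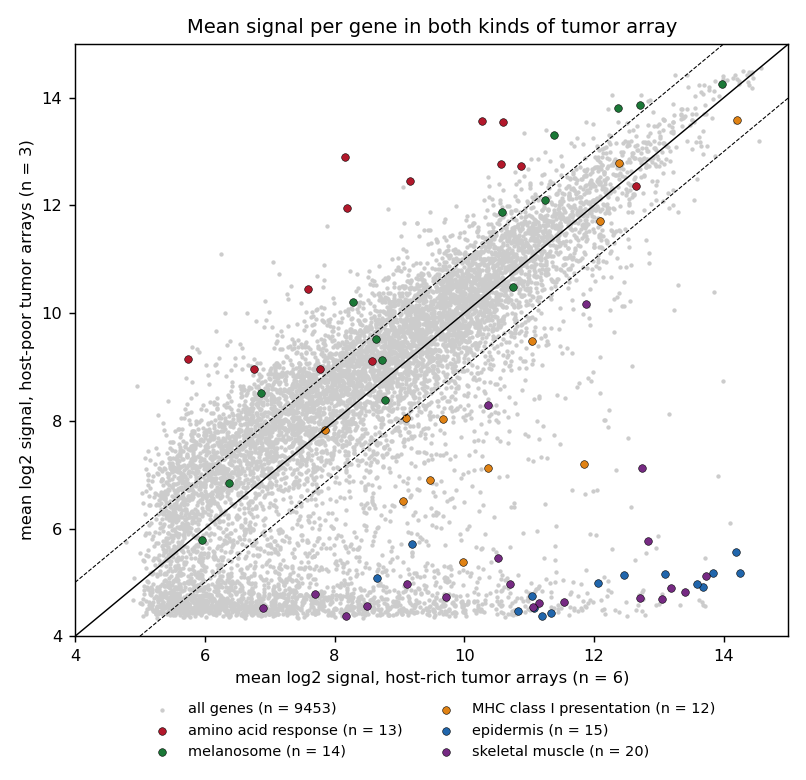
Mean normalized log2 signal of each gene on the 3 host-poor arrays (y axis) against the 6 host-rich arrays (x axis), with 5 gene lists in color, a solid line of equality and dashed lines at 2-fold. Most epidermis and muscle genes form a band along the floor, melanosome genes lie near or above equality, and most amino acid response genes lie above the upper dashed line.

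Epidermis genes were undetected or far lower on the host-poor arrays. Of 15 measured epidermis genes, 14 were lower on host-poor arrays and 0 higher, and 8 were lost. Their median log2 difference was -7.07, or -6.31 with genes undetected on all host-poor arrays held at the lowest detected signal. Krt5, the partner of Krt14 in basal cells, had 4.50, 4.43 and 4.36 on host-poor arrays and 9.01 to 12.58 (median 11.93) on host-rich arrays, at least 48.0-fold lower. Such bounds set the host-rich mean against the lowest detected signal of each host-poor array. Trp63, the transcription factor of stratified epithelia, was at least 40.0-fold lower, with 4.37, 4.61 and 4.61 on host-poor arrays and 8.59 to 12.20 (median 11.56) on host-rich arrays. Neither gene was detected on a host-poor array. Among all lost genes the largest bound was that of Dmkn, which encodes the epidermal protein dermokine, at 249-fold. Lgals7, a galectin of stratified epithelia (228-fold), Asprv1, a protease of the cornified layer (169-fold), and Lce1m, Crct1 and Ly6g6c (233-, 191- and 171-fold) were also among the 12 largest. Other probes of Dmkn and Lgals7 were detected on 1 or 2 host-poor arrays, so these bounds hold for the probe used. Dsc3, a desmosome cadherin, missed the rule, because its host-poor values of 4.45, 5.81 and 4.97 overlapped host-rich values of 4.99 to 10.19 (median 9.84).

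Day 14 array 2 was the one host-poor array with detected epidermis genes. Its raw Krt14 signal was 121, against 129 and 128 on the others, and its median raw signal 105, against 140 and 133. Whether remaining epidermis or the lower raw signal of this array underlies the detections was not tested. Day 14 array 2 detected 7 of the 15 genes, against 0 on the other 2 host-poor arrays and at least 14 on each host-rich array. Krt10, a keratin of suprabasal cells, had 4.59, 6.99 and 5.14 on host-poor arrays and 13.50 to 14.62 (median 14.34) on host-rich arrays. Lor, the main protein of the cornified envelope, had 4.47, 6.22 and 4.85 on host-poor and 13.02 to 14.30 (median 14.12) on host-rich arrays. Even on day 14 array 2 these signals were far below every host-rich array. Only 4 hair shaft keratins were measured, and the host-rich arrays themselves were split for them, Krt27 ranging from 4.56 to 14.48 there and having 4.35, 6.72 and 4.61 on host-poor arrays.

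Skeletal muscle genes followed the same course. Of 20 measured, 19 were lower and 13 lost, with a median log2 difference of -5.68 (-5.36 with bounds). Atp2a1, the calcium pump of fast fibers, had 4.68, 4.79 and 4.62 on host-poor arrays and 11.45 to 14.21 (median 13.54) on host-rich arrays, at least 157-fold lower. Tnnc2, the calcium sensor troponin C of fast fibers, was at least 173-fold lower. These proteins act in the contraction cycle of fast-twitch fibers, and their transcripts stood out on every host-rich array. Mylpf, the fast fiber regulatory myosin light chain, was the muscle gene still detected on all 3 host-poor arrays that differed most, with 7.26, 6.49 and 7.64 there and 11.09 to 13.98 (median 13.02) on host-rich arrays. Des, the intermediate filament desmin, overlapped, at 8.68, 8.32 and 7.91 on host-poor arrays and 8.51 to 11.78 (median 10.87) on host-rich arrays. Eno3, the muscle enolase, stayed at 10.57, 9.65 and 10.31 on host-poor arrays, below 10.84 to 12.75 (median 11.93) on host-rich arrays.

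Fibroblast and matrix genes divided into a lost and a retained part. Of 19 measured, 14 were lower, 10 were lost and 5 were detected on all 3 host-poor arrays, and the median log2 difference was -4.49 (-3.92 with bounds, -2.96 in the deposited value table and -2.92 without background correction). Dcn, the collagen-binding proteoglycan decorin, had 4.38, 4.67 and 4.86 on host-poor arrays and 12.45 to 14.23 (median 14.11) on host-rich arrays, at least 242-fold lower. Thy1, a surface protein of fibroblasts and T cells, was at least 75.6-fold lower. Fn1, fibronectin, remained detected at 9.05, 8.36 and 7.18 on host-poor arrays, lower than 10.35 to 13.04 (median 12.64) on host-rich arrays, by its brightest probe. Its 3 other probes were detected on 0 host-poor arrays and on 4 to 6 host-rich arrays. Retained signals are seen in the next genes. Sparc, a collagen-binding matrix protein, had 11.49, 11.33 and 11.31 on host-poor and 11.00 to 13.30 (median 12.76) on host-rich arrays, which overlapped, and its second probe differed by 0.16. Pcolce, the enhancer of procollagen C-proteinase, had 11.03, 10.91 and 11.29 on host-poor and 10.54 to 11.93 (median 11.08) on host-rich arrays. Fbln1, the matrix protein fibulin 1, had a higher mean on host-poor arrays, with 11.85, 11.06 and 11.41 against 9.54 to 11.14 (median 10.37) on host-rich arrays, though the ranges overlapped. Sparc, Pcolce and Fbln1 thus overlapped the host-rich range, whereas Fn1, also detected on all 3 host-poor arrays, lay below it. Mmp2, a gelatinase, was among the 10 genes detected on all 9 tumor arrays that differed most downward, with 7.52, 7.66 and 7.86 on host-poor and 10.99 to 13.54 (median 12.93) on host-rich arrays.

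Fat cell and vessel genes were mostly undetected too, and smooth muscle genes were so in part. None of the 8 measured fat cell genes was detected on any host-poor array, 7 were lower, and Lpl, the lipoprotein lipase, was at least 148-fold lower with 4.51, 4.63 and 4.61 on host-poor and 11.26 to 14.12 (median 13.37) on host-rich arrays. Of 14 endothelial genes, 13 were lower and 11 lost. Pecam1, a junction protein of endothelium also found on some leukocytes, had 4.86, 4.57 and 4.45 on host-poor arrays and 8.28 to 9.60 (median 8.90) on host-rich arrays, at least 8.85-fold lower by its brighter probe, the other being detected on 1 host-poor array. Flt1, a receptor of vascular endothelial growth factor, was at least 13.7-fold lower. Vessel genes were not all alike. Plvap, which forms the diaphragms of fenestrated capillaries, was lower but detected on every host-poor array, at 8.23, 7.97 and 7.93 against 8.98 to 10.66 (median 10.25) on host-rich arrays. Egfl7, a secreted protein named for endothelium, went the other way, with 12.38, 11.34 and 11.26 on host-poor arrays and 9.76 to 11.03 (median 10.70) on host-rich arrays, and its second probe also had the higher mean there. The 9 measured genes of smooth muscle and vessel wall had 5 lower, 4 neither and 0 higher. On all 3 host-poor arrays 3 of the 9 were detected, and the median log2 difference was -2.14. Acta2, the actin of smooth muscle and myofibroblasts, had the largest difference of that list. It was at least 128-fold lower by its brightest probe, and 2 other probes were detected on 1 host-poor array each. Vegfa, a ligand of Flt1, was detected on all arrays and had 10.28, 11.41 and 10.55 on host-poor arrays and 9.24 to 10.18 (median 9.88) on host-rich arrays. These Vegfa ranges did not overlap, but the log2 difference of 0.92 was under 2-fold.

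Most leukocyte transcripts were near the floor on the host-poor arrays. Of 22 macrophage genes, 21 were lower and 14 lost (median log2 difference -4.54, or -3.48 with bounds, -2.58 in the deposited value table and -2.54 without background correction), and of 10 genes shared by leukocytes, 9 were lower. C1qb, a chain of the complement starter C1q made by tissue macrophages, had 4.35, 4.48 and 4.29 on host-poor arrays and 12.38 to 12.75 (median 12.48) on host-rich arrays, at least 108-fold lower. Arg1, the arginase of alternatively activated macrophages, had 4.73, 4.51 and 4.69 on host-poor arrays and 9.09 to 11.22 (median 10.17) on host-rich arrays. Both genes were near the floor on each host-poor array and well above it on each host-rich array. Ptprc, the pan-leukocyte phosphatase CD45, had the low signals of 4.39, 4.55 and 4.44 on host-poor arrays and 4.56 to 6.22 (median 5.71) on host-rich arrays. Lgmn, a lysosomal protease, and Apoe, apolipoprotein E, were the macrophage list members detected on all 3 host-poor arrays, with Lgmn at 10.98, 10.36 and 10.67 there and 11.96 to 12.66 (median 12.15) on host-rich arrays. Apoe had 11.55, 10.60 and 11.91 on host-poor and 12.10 to 13.46 (median 12.68) on host-rich arrays. Both were lower on host-poor arrays by mean, and no host-poor array reached the host-rich range. Tmsb4x, an actin-binding peptide abundant in leukocytes, was at 8.46, 9.43 and 8.35 on host-poor arrays and 13.76 to 14.23 (median 14.01) on host-rich arrays.

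Most lymphocyte, dendritic and mast cell genes were lower too, and for 2 T cell genes the probes disagreed. Of 8 T cell genes, 5 were lower and 6 lost. Cd3g, part of the T cell receptor complex, had 4.74, 4.36 and 4.49 on host-poor arrays and 8.08 to 9.95 (median 8.72) on host-rich arrays, at least 8.41-fold lower. Cd8b1, a chain of the CD8 coreceptor, had 10.59, 10.29 and 10.76 on host-poor arrays and 10.49 to 11.34 (median 11.02) on host-rich arrays by its brighter probe, but its other probe was detected on no host-poor array and on all 6 host-rich arrays. Foxp3, the transcription factor of regulatory T cells, likewise had 10.03, 9.90 and 10.20 on host-poor and 9.08 to 10.07 (median 9.46) on host-rich arrays by its brighter probe, while its other probe was detected on 0 host-poor and 5 host-rich arrays. The brighter probes of Cd8b1 and Foxp3 thus gave high signals on arrays where Cd3d, Cd3e and Cd3g were undetected. Of 9 dendritic and Langerhans cell genes, 6 were lower, 0 higher and 3 neither, with a median log2 difference of -1.74. The differences in that list ran from -3.57 to 0.99. Cd207, the Langerhans cell lectin, had the largest of them and was at least 5.78-fold lower. Of 6 mast cell genes 5 were lower, of 5 natural killer and cytotoxic genes 3, and of 2 B cell genes 1. Mcpt4, a mast cell protease, was at least 19.2-fold lower.

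**Figure D3:**
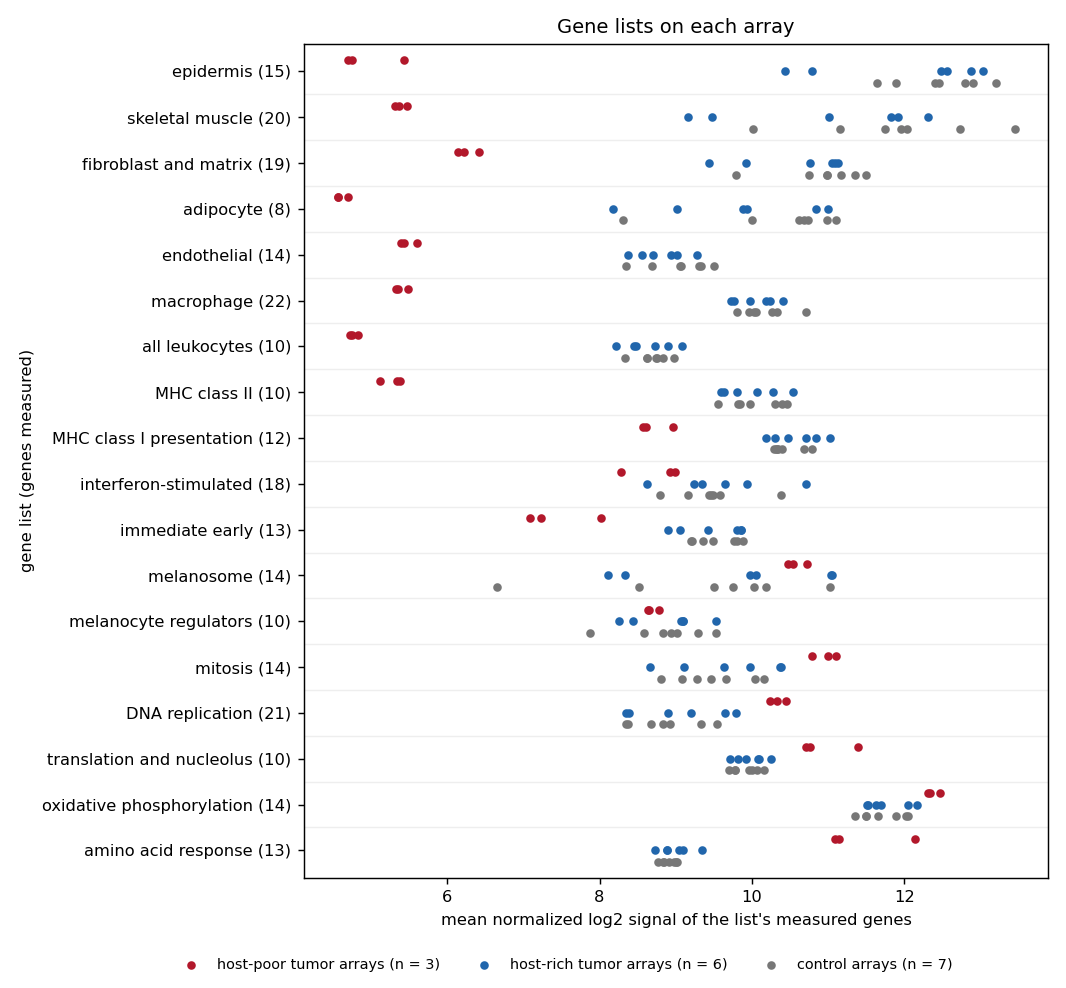
Mean normalized log2 signal over the measured genes of 18 lists (y axis, number of genes in brackets) on each array, in red for 3 host-poor, blue for 6 host-rich and gray for 7 control arrays. From epidermis to MHC class II the host-poor arrays stand far left of all others, the melanosome list overlaps, and amino acid response genes stand to the right.

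Genes of antigen presentation were lower, those of class I remaining detected. The class II genes, which present antigen on dendritic cells, macrophages and B cells, had 8 of 10 lower and 5 lost, and H2-Ab1 was at least 243-fold lower, with 4.50, 4.65 and 4.57 on host-poor and 13.33 to 14.00 (median 13.74) on host-rich arrays, although its other probe was detected on 1 host-poor array. H2-Eb1, a class II beta chain, was at least 158-fold lower. Class I genes, which nearly all nucleated cells can express, had 8 of 12 lower and 0 lost, and 11 were detected on all 3 host-poor arrays. H2-K1, a class I heavy chain, had 6.72, 6.77 and 7.20 on host-poor arrays and 8.69 to 10.56 (median 9.52) on host-rich arrays, 5.95-fold lower. Tap1, a chain of the peptide transporter, had 7.06, 6.21 and 6.27 on host-poor and 8.48 to 9.88 (median 8.92) on host-rich arrays. No host-poor array reached the host-rich range for H2-K1 or Tap1. Psmb8 and Psmb9, proteolytic subunits of the immunoproteasome, had log2 differences of -4.65 and -3.25, whereas Psmb5, the subunit that Psmb8 replaces, had a difference of 0.78. Nlrc5, the activator of class I transcription, was detected on 1 host-poor array only, at 5.52, 6.04 and 4.59, against 9.45 to 10.72 (median 9.90) on host-rich arrays. B2m, the light chain that all class I molecules share, lay at 13.84, 13.58 and 13.36 on host-poor and 14.12 to 14.27 (median 14.22) on host-rich arrays. Its difference of -0.61 turned to 0.39 when arrays were scaled to their 75th percentile, so no direction is given for it. Tapbp, tapasin, differed by -0.03, with its second probe differing by 1.69, so its direction is open to the choice of probe.

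Genes induced by interferon were mixed. Of 18 measured, 6 were lower and 0 higher, and the median log2 difference was -0.74, or -0.16 when arrays were scaled to their 75th percentile. On all 3 host-poor arrays 14 of them were detected, against 7142 of 9453 over all genes. Cxcl9, a T cell attractant induced by interferon gamma, was lost, at 4.54, 5.16 and 4.47 on host-poor arrays and 7.71 to 11.97 (median 9.04) on host-rich arrays. Cxcl10, a ligand of the same receptor, overlapped, at 10.04, 11.74 and 9.07 on host-poor and 7.03 to 11.16 (median 8.30) on host-rich arrays. Isg15, a ubiquitin-like protein, had 9.67, 9.94 and 9.04 on host-poor and 7.23 to 9.09 (median 8.49) on host-rich arrays, so only its day 14 array 5 reached into the host-rich range. The response was thus not uniform across genes. Oasl2, of the oligoadenylate synthetase family, was lower at 6.41, 6.82 and 5.14 on host-poor arrays, against 9.34 to 10.28 (median 9.67) on host-rich arrays. Cd274, the checkpoint ligand PD-L1, was detected on all 9 tumor arrays, with overlapping values of 9.97, 9.98 and 9.34 on host-poor and 8.30 to 10.46 (median 9.47) on host-rich arrays. Cd86, a costimulatory molecule of antigen-presenting cells, was lost and at least 7.45-fold lower.

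Most pigment cell transcripts were detected on the host-poor arrays. All 3 melanin enzymes were detected on each of the 9 tumor arrays. Of 14 melanosome genes, 13 were detected on all host-poor arrays and 12 on all 6 host-rich arrays, 0 were lower and 1 was higher. Melanocyte regulators numbered 10, of which 8 were detected on all host-poor arrays and 2 on none, with 2 lower and 0 higher. Over all genes, 7142 of 9453 were detected on all 3 host-poor arrays. Tyrp1, which acts late in the synthesis of dark melanin, had 13.70, 13.97 and 13.71 on host-poor arrays and 10.40 to 13.56 (median 12.83) on host-rich arrays, 2.97-fold higher. Tyr, the rate-limiting tyrosinase, had 10.11, 9.39 and 9.99 on host-poor arrays, above the host-rich median but inside the range of 5.16 to 10.62 (median 8.51). Dct, dopachrome tautomerase, had 14.07, 14.37 and 13.93 on host-poor and 12.83 to 14.49 (median 14.18) on host-rich arrays. The host-rich arrays spread widely for these genes, with a Tyr SD of 2.10 against 0.38 on host-poor arrays, and the control arrays spread from 4.39 to 10.70. Pigment transcripts were therefore present in control tissue as well. Of the 3 melanin enzymes, only Tyrp1 was above every host-rich array, while Tyr and Dct overlapped.

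The promoters of the melanin enzymes are shown because these genes share a short sequence. The word CATGTG is the core of the M box, bound by the melanocyte regulator MITF. It was searched on both strands in windows of 250 bases before to 50 bases after the RefSeq start of each gene (GRCm38.p6). Capitals mark each match, a reverse-strand match being printed as it reads on the gene strand.
Tyr, chr7:87493463-87493762, minus strand: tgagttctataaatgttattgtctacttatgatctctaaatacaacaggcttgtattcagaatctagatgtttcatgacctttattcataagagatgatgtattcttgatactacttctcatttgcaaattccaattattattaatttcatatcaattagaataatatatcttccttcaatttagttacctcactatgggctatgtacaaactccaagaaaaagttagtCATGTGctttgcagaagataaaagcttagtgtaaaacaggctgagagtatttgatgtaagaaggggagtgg
Tyrp1, chr4:80833963-80834262, plus strand: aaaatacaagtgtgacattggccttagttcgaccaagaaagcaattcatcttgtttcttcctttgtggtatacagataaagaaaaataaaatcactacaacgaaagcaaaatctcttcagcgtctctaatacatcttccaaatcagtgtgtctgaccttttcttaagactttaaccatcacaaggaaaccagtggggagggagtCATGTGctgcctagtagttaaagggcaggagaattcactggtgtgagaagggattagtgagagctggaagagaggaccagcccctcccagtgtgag
Dct, chr14:118052197-118052496, minus strand: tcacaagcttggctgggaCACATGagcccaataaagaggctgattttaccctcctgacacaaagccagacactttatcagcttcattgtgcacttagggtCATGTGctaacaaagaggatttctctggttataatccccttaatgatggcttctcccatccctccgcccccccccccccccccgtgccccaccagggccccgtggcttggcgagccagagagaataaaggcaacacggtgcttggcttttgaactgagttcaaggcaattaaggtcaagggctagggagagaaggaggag
All 3 windows held the word, as did 6 of 20 windows (30.0%) over all pigment lists together. It was present in 14.2% of all 32851 windows, in 10.5% of those of measured genes, in 8.53% of those of genes higher on host-poor arrays and in 13.8% of those of genes lower there. The melanin enzymes are shown because they share the word, so the share among them describes that choice. A match is a run of letters and shows no binding.

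Most melanosome and lineage regulator genes had host-poor signals inside or above the host-rich range, and 2 receptors were lower. Pmel, the amyloid scaffold of the melanosome, had 13.72, 13.75 and 13.98 on host-poor and 9.85 to 14.29 (median 12.98) on host-rich arrays, which overlapped. Rab38, a GTPase that carries melanin enzymes to melanosomes, had 13.13, 13.54 and 13.25 on host-poor arrays, above the host-rich values of 9.52 to 12.54 (median 11.71). Rab38 was the melanosome gene that met the rule for higher. Sox10, a neural crest transcription factor, had 13.01, 12.74 and 13.02 on host-poor and 8.69 to 13.07 (median 12.07) on host-rich arrays. Mitf had 8.01, 8.91 and 8.64 on host-poor and 5.45 to 8.25 (median 6.29) on host-rich arrays, and only day 4 array 4 reached into the host-rich range. Mc1r, the receptor for melanocyte-stimulating hormone, had 10.31, 10.05 and 10.50 on host-poor arrays and 5.04 to 10.59 (median 8.23) on host-rich arrays. The 3 host-poor arrays lay within 1 log2 unit of each other for each of these 5 genes. Ednrb, the endothelin receptor needed by migrating melanocyte precursors and also made by other cells, was lost, with 4.52, 4.84 and 4.48 on host-poor arrays and 9.07 to 11.90 (median 10.98) on host-rich arrays, and all 3 of its probes were undetected on host-poor arrays. Kit, the stem cell factor receptor of melanocytes and mast cells, was lower but detected, at 8.07, 8.42 and 7.23 on host-poor arrays against 8.65 to 9.78 (median 9.20) on host-rich arrays.

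**Figure D4:**
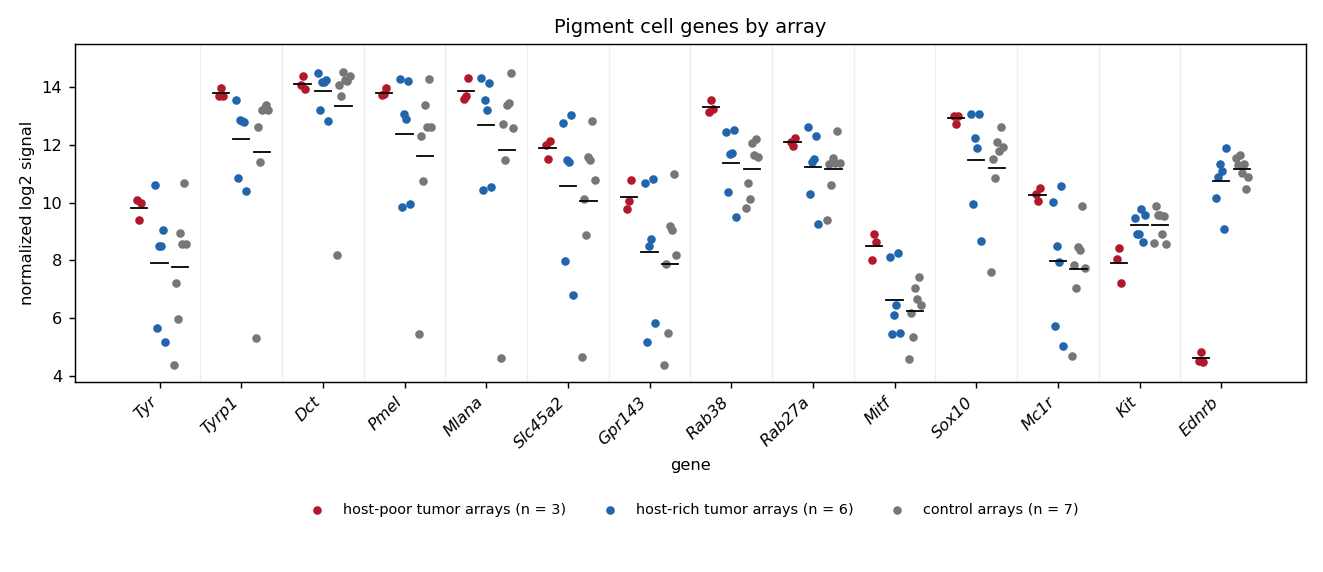
Normalized log2 signal (y axis) of 14 pigment cell genes (x axis) on each array, with red points for the 3 host-poor, blue for the 6 host-rich and gray for the 7 control arrays and black bars for the means. Host-poor points lie together near the top of the other arrays' spread for most genes, below it for Kit, and at the floor for Ednrb.

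Several neural and ganglioside genes also differed. Mbp, known from myelin and also transcribed elsewhere from an upstream start, had 13.59, 13.17 and 13.44 on host-poor arrays and 8.996 to 12.37 (median 11.58) on host-rich arrays. Of its 4 probes, 3 had the higher mean on host-poor arrays and the other differed by -2.23. Ncam1, a neural adhesion molecule, had 9.998, 9.28 and 9.65 on host-poor arrays and 7.31 to 8.14 (median 7.602) on host-rich arrays. Both were above every host-rich array. Of 6 nerve and glia genes measured, Sox10 among them, 2 were higher, 0 lower and 4 neither, and all 6 were detected on each host-poor array. Ganglioside genes numbered 4, of which 2 were lower, 1 higher and 1 neither. St3gal5, which makes the ganglioside GM3 found on B16 cells, had 10.01, 9.83 and 9.90 on host-poor arrays and 6.94 to 8.89 (median 8.29) on host-rich arrays. B4galnt1, which extends GM3 to GM2, was lost, with 4.54, 4.93 and 4.69 on host-poor and 7.83 to 8.96 (median 8.41) on host-rich arrays. The first step of the ganglioside path was therefore higher and the next one undetected on the same arrays. Of 5 imprinted and fetal genes measured, 3 were lower and 1 higher. Igf2, a fetal growth factor, was undetected on host-poor arrays and at least 5.60-fold lower. The higher one, Igf2bp3, an RNA-binding protein of fetal tissues and tumors, was 6.90-fold higher, with 9.56, 9.61 and 8.89 on host-poor and 5.41 to 7.93 (median 6.25) on host-rich arrays.

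Most genes of the response to amino acid shortage were higher on the host-poor arrays. When amino acids run short or unfolded proteins build up, phosphorylation of the initiation factor eIF2 slows translation and favors that of Atf4, a transcription factor that induces enzymes of serine and asparagine synthesis, cystine uptake and the stress regulators Ddit3 and Trib3. Of 13 measured genes of the list, 10 were higher on host-poor arrays and 0 lower, with a median log2 difference of 2.85. All 13 were detected on every host-poor array. Over all genes 13.4% were called higher and the median was 0.15, in the same contrast that the array rule used. In the deposited value table the list median was 2.10.

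Trib3, a pseudokinase that restrains the response, had 13.08, 13.45 and 12.18 on host-poor arrays and 7.33 to 9.42 (median 8.13) on host-rich arrays. Its mean was 12.91 ± 0.65 on host-poor arrays (SD, n = 3) and 8.16 ± 0.72 on host-rich arrays (SD, n = 6), 26.8-fold higher, and all 3 of its probes had the higher mean on host-poor arrays. Asns, asparagine synthetase, had 13.58, 13.82 and 13.30 on host-poor and 9.97 to 10.77 (median 10.14) on host-rich arrays, with a mean of 13.56 ± 0.26 on host-poor arrays (SD, n = 3) and 10.28 ± 0.37 on host-rich arrays (SD, n = 6). Phgdh, the first enzyme of serine synthesis, had 11.997, 11.95 and 11.89 on host-poor arrays and 6.82 to 9.70 (median 8.16) on host-rich arrays. For none of these did any host-poor array come within 1 log2 unit of a host-rich one. Ddit3, the transcription factor CHOP, had 12.76, 12.96 and 11.64 on host-poor arrays and 7.76 to 9.98 (median 9.36) on host-rich arrays. Mthfd2 and Shmt2, mitochondrial enzymes that carry one-carbon units from serine, were 7.72- and 7.23-fold higher. The one-carbon enzymes thus differed along with the serine enzyme. Aldh1l2, a mitochondrial folate enzyme outside the list, had 11.86, 12.42 and 10.57 on host-poor and 7.46 to 8.21 (median 8.00) on host-rich arrays. Atf4 itself had 12.45, 12.96 and 12.79 on host-poor arrays and 10.60 to 11.32 (median 10.78) on host-rich arrays. Each host-poor array was above each host-rich array for both. Eif4ebp1, a translation repressor, had 12.63, 12.66 and 12.59 on host-poor arrays and 10.06 to 11.31 (median 10.81) on host-rich arrays. Among the 3 members that did not meet the rule, Chac1, a glutathione-degrading enzyme, had 12.08, 13.52 and 12.73 on host-poor and 9.33 to 13.01 (median 10.23) on host-rich arrays, which overlapped. Cebpb and Vldlr, the others, differed by -0.28 and 0.53. Control arrays ran from 6.92 to 8.73 for Trib3 and from 9.94 to 10.62 for Asns, below every host-poor array.

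**Figure D5:**
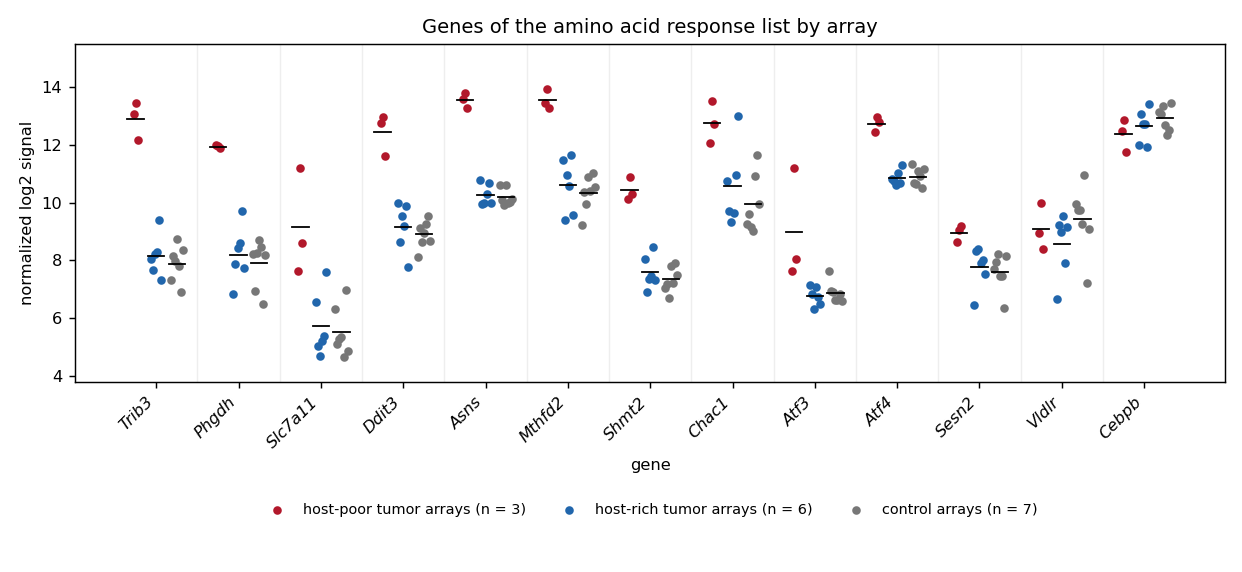
Normalized log2 signal (y axis) of the 13 genes of the amino acid response list (x axis) on each array, with red points for the 3 host-poor, blue for the 6 host-rich and gray for the 7 control arrays and black bars for the means. Host-poor points lie clear of all others for Trib3, Phgdh, Ddit3, Asns, Mthfd2, Shmt2 and Atf4, and 1 point, day 14 array 2, stands high for Slc7a11 and Atf3.

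Promoters of 4 of these genes are shown because they carry a word of the element through which ATF4 and its partners act. The word TGATGNAA, the core of the amino acid response element, was searched on both strands in the same windows, and capitals mark each match as it reads on the gene strand.
Trib3, chr2:152344011-152344310, minus strand: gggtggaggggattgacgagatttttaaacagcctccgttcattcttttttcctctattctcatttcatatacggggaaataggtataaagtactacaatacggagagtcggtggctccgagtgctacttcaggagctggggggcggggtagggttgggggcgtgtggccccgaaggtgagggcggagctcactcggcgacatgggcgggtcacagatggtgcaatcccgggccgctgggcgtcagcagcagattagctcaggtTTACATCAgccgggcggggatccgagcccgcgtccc
Asns, chr6:7693160-7693459, minus strand: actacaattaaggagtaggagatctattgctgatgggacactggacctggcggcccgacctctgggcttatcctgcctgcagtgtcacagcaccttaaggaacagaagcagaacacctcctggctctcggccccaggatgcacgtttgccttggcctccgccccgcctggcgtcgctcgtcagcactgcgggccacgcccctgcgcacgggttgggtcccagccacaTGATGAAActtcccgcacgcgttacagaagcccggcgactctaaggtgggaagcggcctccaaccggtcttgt
Chac1, chr2:119350992-119351291, plus strand: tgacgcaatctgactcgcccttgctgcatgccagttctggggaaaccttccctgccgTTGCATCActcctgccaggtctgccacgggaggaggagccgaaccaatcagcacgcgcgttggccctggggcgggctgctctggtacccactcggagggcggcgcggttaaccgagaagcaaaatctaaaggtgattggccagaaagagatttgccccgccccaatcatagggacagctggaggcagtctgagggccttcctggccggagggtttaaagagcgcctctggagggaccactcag
Slc7a11, chr3:50443564-50443863, minus strand: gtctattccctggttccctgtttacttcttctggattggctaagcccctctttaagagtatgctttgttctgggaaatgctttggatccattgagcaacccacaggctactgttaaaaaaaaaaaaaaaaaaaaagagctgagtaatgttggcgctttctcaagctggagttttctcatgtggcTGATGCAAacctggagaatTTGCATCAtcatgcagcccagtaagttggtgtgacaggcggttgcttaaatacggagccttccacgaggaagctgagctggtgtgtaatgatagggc
The word was present in the windows of 6 of the 13 listed genes (46.2%), which besides these 4 were Atf3 and Vldlr. It was present in 3.97% of all windows, in 3.01% of those of measured genes, in 3.00% of those of genes higher on host-poor arrays and in 4.44% of those of genes lower there. The list was drawn up as known ATF4 targets, so the share among them describes the list. No match in the other 7 windows says only that these letters are not there.

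Cell division genes had higher means as well. All 14 mitosis genes and all 21 DNA replication genes measured had the higher mean on host-poor arrays, and 6 and 10 of them met the rule. Tpx2, a spindle assembly factor, had 8.30, 8.496 and 8.45 on host-poor arrays and 5.17 to 6.76 (median 5.73) on host-rich arrays, 6.18-fold higher. Rfc4, a subunit of the clamp loader, had 9.59, 9.91 and 9.93 on host-poor and 6.93 to 7.90 (median 7.34) on host-rich arrays. Top2a, the topoisomerase of dividing cells, overlapped, at 10.67, 11.11 and 11.06 on host-poor and 9.94 to 11.38 (median 10.62) on host-rich arrays, and its other probe differed by -0.63. All genes of both lists were detected on all 9 tumor arrays. By comparison, 55.5% of all genes and 69.4% of those detected on all 9 tumor arrays had the higher mean there, so a higher mean alone is common. Of 11 cyclin and cell cycle inhibitor genes, 2 were lower, 0 higher and 9 neither, with a median log2 difference of 0.81. The lower ones were 2 inhibitors. Cdkn1c was lower, at 5.42, 6.88 and 5.37 on host-poor arrays against 7.93 to 10.66 (median 9.23) on host-rich arrays, and Cdkn2b was detected only on day 14 array 2 among the host-poor arrays. The other inhibitors were not lower by the rule. Cdkn1b, the p27 inhibitor, overlapped, at 8.55, 8.54 and 8.75 on host-poor and 5.06 to 8.74 (median 8.49) on host-rich arrays. Cdkn1a, the p21 inhibitor, overlapped, at 11.66, 11.65 and 11.24 on host-poor and 11.52 to 12.59 (median 11.83) on host-rich arrays. Myc, the growth regulator, had 7.55, 8.30 and 7.70 on host-poor arrays and 6.01 to 6.94 (median 6.54) on host-rich arrays.

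Genes of translation and respiration were detected on every host-poor array, while most muscle isoforms were lower. Of 10 measured muscle isoform genes of energy metabolism, 7 were lower, 0 higher and 3 neither. Of 10 translation and nucleolus genes 6 were higher, of 14 respiratory chain genes 3 were higher, and 0 of either were lower. The 6 measured ribosomal protein genes met neither rule, with log2 differences between 0.02 and 0.95. Cox7a1, the muscle and heart form, had 6.01, 6.66 and 6.27 on host-poor and 9.29 to 9.92 (median 9.53) on host-rich arrays, whereas Cox7a2, the general form, had 9.15, 8.85 and 9.61 on host-poor and 7.26 to 8.67 (median 7.69) on host-rich arrays. The muscle form was thus lower and the general form higher. Cox8b, another muscle and fat form, was lost and at least 16.5-fold lower. Chaperone genes went both ways, with 2 of 11 lower, 4 higher and 5 neither, and a median log2 difference of 0.12. Among them, Hspa1a, the inducible heat shock protein of the cytosol, was lost, with 4.37, 4.43 and 4.51 on host-poor and 8.26 to 10.57 (median 9.90) on host-rich arrays. Hspe1, a mitochondrial chaperonin, was higher, with 10.46, 11.85 and 11.28 on host-poor and 8.26 to 9.91 (median 9.03) on host-rich arrays. Pgk1, a glycolytic kinase, was the 1 of 11 glycolysis genes that was higher, and 0 were lower.

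Immediate early genes, which respond within minutes to growth factors, injury and handling of tissue, were lower in part. Of 13 measured, 8 were lower, 4 lost and 1, Atf3, higher. Klf4 had 4.78, 5.12 and 5.20 on host-poor and 9.54 to 11.79 (median 10.82) on host-rich arrays, and 2 of its other probes were detected on 1 or 2 host-poor arrays. Egr2 had 4.64, 4.70 and 4.39 on host-poor and 8.14 to 11.06 (median 10.45) on host-rich arrays. Klf2 was at least 14.7-fold lower. Klf2 and Egr2 were thus undetected on host-poor arrays, and Egr1 was detected on 2 of them. Egr1, a zinc finger factor, had 5.28, 7.77 and 6.32 on host-poor arrays and 9.23 to 12.73 (median 11.44) on host-rich arrays. Jun and Jund overlapped, with log2 differences of -0.20 and 0.09. Of 17 genes of TGF-beta, BMP and Wnt signaling 9 were lower, Wnt5a being at least 10.6-fold and Bmp4 at least 7.76-fold lower, and 1, Tgfb2, was higher, with 7.33, 7.47 and 7.28 on host-poor and 5.41 to 6.82 (median 6.23) on host-rich arrays.

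Chemokines and cytokines were mostly lower, and Cxcl1 was the one that was higher. Of 17 measured, 13 were lower, 10 lost and 1 higher. Ccl9, a myeloid chemokine, was at least 95.6-fold lower, and Il1b, interleukin 1 beta, had 4.50, 4.87 and 4.65 on host-poor and 6.88 to 8.17 (median 7.503) on host-rich arrays. Cxcl1, a neutrophil attractant, had 11.75, 13.34 and 8.23 on host-poor arrays and 5.84 to 7.07 (median 6.12) on host-rich arrays, the largest difference upward of all 9453 genes at 28.9-fold. Its log2 difference of 4.85 was 3.74 without day 14 array 2 and 6.29 without day 14 array 5. Its SD over the host-poor arrays, 2.61, was also wide, and day 14 array 5 was below the highest control array, as controls ran from 5.17 to 8.29. Csf1, the ligand of Csf1r, had 8.51, 8.45 and 6.31 on host-poor and 6.25 to 7.61 (median 6.60) on host-rich arrays, which overlapped.

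Of the 15 genes with the largest differences upward, Cxcl1, Trib3, Phgdh, Aldh1l2 and Slc7a11 are given above or below. Slc35f1, a member of a solute carrier family, came nearest to being private to host-poor arrays, with 8.87, 8.85 and 8.21 there and 4.52 to 5.38 (median 4.95) on host-rich arrays, of which 2 detected it, as did 1 control array. Fbxo2, an F-box protein that recognizes glycoproteins, had 11.38, 10.28 and 11.20 on host-poor and 5.29 to 8.26 (median 7.34) on host-rich arrays. Tph2, the tryptophan hydroxylase of neurons, had 10.02, 10.14 and 9.87 on host-poor and 4.60 to 8.67 (median 6.77) on host-rich arrays. Each of these was detected on all 3 host-poor arrays and lay below all of them on each host-rich array. Ddx25, an RNA helicase known from testis, Crmp1, a neuronal growth cone protein, and Gsdmc, a gasdermin, were 12.97-, 10.9- and 12.1-fold higher. Odf3l1 was 11.9-fold, Angptl6, a secreted angiopoietin-like protein, 10.3-fold and Rgs16, a regulator of G protein signaling, 9.77-fold higher, the log2 difference of Rgs16 being 3.29 with all arrays and 4.15 without day 14 array 5. Acot2, a mitochondrial acyl-CoA thioesterase, was 11.4-fold higher by its brighter probe, while the other differed by -0.16 on the log2 scale.

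The genes detected on all 9 tumor arrays with the largest differences downward were mostly known from leukocytes, muscle and epidermis. Cfp, the complement protein properdin, had 6.01, 6.65 and 6.55 on host-poor and 12.10 to 12.94 (median 12.68) on host-rich arrays, 72.2-fold lower. Alox5ap, needed for leukotriene synthesis, and Rnase4, a secreted ribonuclease, were 41.3- and 40.3-fold lower. Elovl4, which makes very long fatty acids of the skin barrier, Sbsn and Cdsn, proteins of the outer epidermis, and H2-DMa, of class II peptide loading, were 38.0-, 37.5-, 32.7- and 30.7-fold lower. Both other probes of Sbsn were undetected on host-poor arrays. Without day 14 array 5 the log2 difference of Cdsn was -4.22 in place of -5.03.

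The host-poor arrays differed among themselves, and day 14 array 2 stood apart from the others. Between day 4 array 4 and day 14 array 5, 445 of 7645 genes (5.82%) detected on either array were at least 2-fold apart. Day 14 array 2 was at least 2-fold apart from day 4 array 4 for 1006 of 7803 genes (12.9%) and from day 14 array 5 for 974 of 7748 genes (12.6%). It was at least 2-fold above both others for 272 genes, against 93 for day 4 array 4 and 61 for day 14 array 5. Of the 231 lower genes detected on 1 or 2 host-poor arrays, day 14 array 2 detected 154, day 4 array 4 detected 106 and day 14 array 5 detected 50. With 1 array of day 4 and 2 of day 14, no comparison of the days was made.

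Named by the size of their range over the 3 arrays, the 10 most variable genes were highest on day 14 array 2. Slc7a11, the cystine transporter, had 7.64, 11.20 and 8.60 on host-poor arrays and 4.71 to 7.595 (median 5.29) on host-rich arrays. Atf3, a stress-induced transcription factor, had 7.64, 11.21 and 8.07 on host-poor and 6.31 to 7.16 (median 6.78) on host-rich arrays, and Prkg2, a cGMP-dependent kinase, had 6.83, 10.45 and 7.16 on host-poor and 5.03 to 6.38 (median 5.76) on host-rich arrays. Slc7a11 differed from the host-rich arrays by 3.40 with all arrays, 2.37 without day 14 array 2 and 4.15 without day 4 array 4. Atf3 differed by 2.21, 1.09 without day 14 array 2 and 2.87 without day 4 array 4. Prkg2 differed by 2.40, 1.25 without day 14 array 2 and 3.06 without day 4 array 4. For each of these 3 genes, day 14 array 2 was at least 2 log2 units above the other host-poor arrays. Igfbp7, a secreted matrix-associated protein, had 6.68, 8.80 and 4.58 on host-poor and 10.56 to 13.03 (median 12.29) on host-rich arrays. Gja1, connexin 43, had 4.83, 8.05 and 4.68 on host-poor and 12.07 to 14.28 (median 12.87) on host-rich arrays. Cox6a2, a muscle respiratory subunit, had 8.38, 9.62 and 5.45 on host-poor and 8.94 to 12.04 (median 11.05) on host-rich arrays. Here day 14 array 2 was the host-poor array nearest to the host-rich ones, and for Cox6a2 it lay inside their range. Lcn2, a siderophore-binding protein, had 6.71, 8.65 and 4.41 on host-poor and 7.27 to 9.27 (median 8.14) on host-rich arrays. Ccl2, a monocyte attractant, had 6.09, 8.04 and 4.50 on host-poor and 5.56 to 7.77 (median 6.30) on host-rich arrays. Bdnf, a neurotrophin, had 6.64, 8.43 and 4.91 on host-poor and 4.53 to 5.57 (median 4.97) on host-rich arrays. Cxcl1, given above, completed the 10.

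The same array was low for sugar and sterol metabolism. The mean log2 signal of 11 glycolysis genes was 12.20 on day 4 array 4, 11.18 on day 14 array 2 and 12.32 on day 14 array 5, against 10.30 to 12.39 on host-rich arrays. The mean of 9 cholesterol synthesis genes was 9.68, 9.03 and 10.79 on these arrays, against 9.78 to 10.49 on host-rich arrays. Day 14 array 2 had the lowest mean of the host-poor arrays for both lists. Among the sterol genes Mvd, a mevalonate decarboxylase, had 8.02, 6.76 and 9.33 on host-poor arrays and 8.71 to 9.88 (median 9.56) on host-rich arrays. The amino acid response list was highest there, with a mean of 11.14, 12.14 and 11.09 on the 3 host-poor arrays. On the same array the mean of the 15 epidermis genes was 5.43, against 4.70 on day 4 array 4 and 4.75 on day 14 array 5. The part of remaining host tissue, of RNA quality or of the low raw signal of that array in these differences was not tested.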

How the data were processed

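Biotin-labeled cRNA made from total RNA was hybridized to Illumina bead arrays, per the labels' protocols. No source used here names the scanner software. The authors' deposited scanner table held, per the file headers, a mean signal intensity and a detection p-value per probe on each of 16 arrays. Its p-values stood 2441 lines below their signals, and were moved back so that p fell with signal with 0 reversals, which left 42831 probes. The series value table holds the authors' deposited log2 values, with their normalization not stated. It was used for 16247 probe names, of which 14836 had 1 symbol, 5 several and 1406 none (14830 updated by gene ID), and as an alternative.

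The function neqc (limma 3.58.1, R 4.3.3) inferred background from the detection p-values by normexp, added 16 to each signal, quantile normalized all 16 arrays together and gave log2 values. Named probes with a signal numbered 14124. Each of the 9453 genes went by the probe with the highest mean, and 3289 genes had several probes. Genes entered when the detection p was under 0.05 on at least 3 arrays. The number of arrays limits the precision. No test was made between classes that were chosen by signal. Only the rule that calls genes lower or higher was tried on simulated data, and the other steps were not. Named genes were the 5 markers, list members with the largest differences, members going against their list, and, over all genes, the 12 largest bounds among lost genes, the 15 largest differences upward, the 10 largest downward among genes detected on all 9 tumor arrays, and the 10 widest host-poor ranges. The array classes, gene lists and rules were chosen with earlier results of these data known. Alternatives covered scaling, background, the deposited values, the filter, the fold, the detection threshold, the probe rule and leaving out each tumor array.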

Additional observations from a re-analysis of the deposited data

Results flagged for a closer look

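Among 184 checks of the highest or lowest array in a class against the others, 4 stood apart. Chance alone flags about 1 in 20, so these are fewer than chance would give and are listed as values only. Cxcl1 was 7.07 on host-rich day 14 array 1, against 5.84 to 6.30 on the other host-rich arrays. C1qb was 12.75 on host-rich day 4 array 2, against 12.38 to 12.51 on the others. Gsdmc was 4.72 on host-rich day 14 array 4, against 7.20 to 7.87 on the others, so that its 12.1-fold difference rests in part on that array. The mean over 8 fat cell genes was 8.31 on control array 6, against 10.01 to 11.10 on the other control arrays. Outside the named genes, 67 probes without a symbol were detected on all 3 host-poor arrays and on no control array.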

How the results depend on the processing

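No paired analysis was possible because the array classes were chosen by signal, were not tested and share few replicate numbers. The count of higher genes was 2428 with scaling to the 75th percentile, 580 in the deposited value table, 588 without background correction and 170 at 4-fold, against 1265 in the main setting. All 580 and all 588 were among the 1265. Leaving out 1 tumor array gave 1767 to 1974 lower, 1237 to 1526 higher, 1089 to 1235 lost and 6779 to 6900 genes detected on all. List medians moved as follows, with the cause not tested. With scaling to the 75th percentile they were -3.80 for fibroblast and matrix, -2.96 for endothelial, -3.88 for macrophage, -2.96 for pan-leukocyte, 0.57 for melanocyte regulator (0.09 in the main setting), 1.91 for DNA replication and 1.37 for respiratory chain genes. In the deposited value table and without background correction they were -5.06 and -5.03 for epidermis, -4.03 and -3.99 for muscle, -2.96 and -2.92 for fibroblast and matrix, -3.64 and -3.60 for fat cell, -1.90 and -1.88 for endothelial, -2.58 and -2.54 for macrophage, -1.81 and -1.76 for pan-leukocyte, -3.37 and -3.37 for class II, and 2.10 and 2.11 for amino acid response genes. Averaging all probes of a gene gave -3.52 for fibroblast and matrix and -3.13 for endothelial genes. Leaving out 1 array gave -4.96 to -4.15 for fibroblast and matrix genes and 0.83 to 1.39 for translation genes, the lowest without day 14 array 2. The melanocyte regulator median had no stable sign, being -0.22 with probes averaged, -0.05 without day 14 array 2 and -0.05 without day 14 array 3. The ganglioside list turned to 0.051 with scaling to the 75th percentile, from a median of -0.68. The signs of B2m, Cd8b1, Cdkn1a, Cebpb, Pcolce and Tapbp turned under that scaling too, and those of Foxp3, Tapbp and Top2a when probes were averaged. Signals near background limit every difference of an undetected gene to a bound.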

Other observations

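Among the 9431 detected probes without a symbol, 877 were lower on host-poor arrays and 1333 higher by the same rules, and 519 were detected on all 6 host-rich and on no host-poor array. Of the 67 detected on all 3 host-poor arrays and on no control array, 27 were detected on no host-rich array either.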
